A study of Mus musculus with 3 samples.

Results

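Immature myofibroblasts, the cells that the authors' deposited annotation calls MyoFB-IMR, made up 1520 of the 6142 mesenchymal cells profiled from mouse lung at postnatal day 7. They were taken by that annotation alone. The tdT-high library (GFP-high tdT-high gate) held 467 of them among 1511 cells, or 30.9% (exact 95% binomial interval 28.6 to 33.3). The tdT-negative library (GFP-high tdT-negative gate) held 1032 among 3347 cells, or 30.8% (29.3 to 32.4). The GFP-low library (GFP-low tdT-negative gate) held only 21 among 1284 cells, or 1.64% (1.02 to 2.49). Of the cells annotated as any myofibroblast, they formed 32.0% of 1458, 38.8% of 2659 and 31.8% of 66 in those libraries. They are described here against intermediate myofibroblasts (MyoFB-Int, 2147 cells), terminal myofibroblasts (MyoFB-Ter, 516 cells) and adventitial fibroblasts (AdvFB, 480 cells). Ratios to adventitial cells use only the 328 of the tdT-negative library. The sources used here do not state how the annotation was made, so its types may rest on the genes described below, and every difference between types is a description without a test.

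All pups carried Fgf18CreERT2/+, ROSATDTomato/+ and PdgfrαEGFP/+ and were given tamoxifen on postnatal days 2 to 5, so every group shares the 3 alleles and the treatment. GFP reads out the Pdgfra locus as a histone-tagged protein, H2BGFP in the deposited gene names, and tdTomato marks cells in which the Fgf18 locus drove Cre recombinase during dosing, together with their progeny. A tdT-negative cell may therefore still express Fgf18, if it did not recombine. Each gate gave 1 single-cell library (10x Genomics, 3′ v3.1), and how many pups were pooled is not stated.

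In the first postnatal weeks, alveolar myofibroblasts appear at the tips of the septa that divide the distal airspaces. Platelet-derived growth factor A from the epithelium acts on their receptor PDGFRA, and they lay down elastin and contract. The population is transient and is largely lost once alveoli have formed. The labels do not say how the 3 myofibroblast types relate to each other in time.

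The immature cells yielded 10948878 unique molecular identifiers (UMIs, single captured transcripts) in the tdT-high library, 20382777 in the tdT-negative library and 498030 in the GFP-low library. Levels below are UMIs per 1000000 UMIs (CPM), summed over all cells of a type within a library. Since each gate is a single library there are no replicates, no p-value is given, and every interval covers counting error only, at 95%. A count of 0 allows up to 3 UMIs, or 0.274, 0.147 and 6.02 CPM in the immature cells of these libraries. Median depth per cell was 23762, 19461 and 20527 UMIs in immature cells, against 22244, 19460 and 22141 UMIs in intermediate cells of the same libraries. The share of UMIs from ribosomal protein genes was 9.05% and 10.2% in tdT-high and tdT-negative immature cells, against 7.37% and 9.16% in intermediate cells and 5.33% and 8.23% in terminal cells. Immediate early genes, a set that tissue dissociation can induce, took 0.348% and 0.305% of UMIs in immature cells, against 0.614% and 0.581% in intermediate cells. Pairs of libraries shared at most 3 cell barcodes, and no shared barcode was an immature cell in both.

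The markers given for these cells were Pdgfra, the receptor itself, Rbfox1, a splicing regulator, Egfem1, a secreted EGF-domain protein, Vsnl1, a neuronal calcium sensor, and Trpc6, a cation channel. Pdgfra stood at 587 and 699 CPM in tdT-high and tdT-negative immature cells, against 252 and 390.4 CPM in intermediate cells and 24.6 and 209 CPM in terminal cells, and at 262 CPM in tdT-negative adventitial cells. At least 1 Pdgfra UMI was seen in 99.4% and 99.6% of immature cells. The reporter transcript H2BGFP ran in the same order, with 255 and 340.2 CPM in immature cells, 85.2 and 177 CPM in intermediate cells and 7.51 and 83.4 CPM in terminal cells, although all of these were sorted as GFP-high.

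Rbfox1 had 2425 and 2587 CPM in tdT-high and tdT-negative immature cells, against 1632 and 1819.5 CPM in intermediate cells, 829 and 1594 CPM in terminal cells and 25.8 CPM in tdT-negative adventitial cells. Egfem1 had 10734 and 11896 CPM in immature cells, against 8749 and 11177 CPM in intermediate cells, 2691 and 8727 CPM in terminal cells and 139 CPM in adventitial cells. Vsnl1 had 211 and 276 CPM in immature cells, against 112 and 212 CPM in intermediate cells, 6.99 and 124 CPM in terminal cells and 2.92 CPM in adventitial cells. Pdgfra thus differed less between immature and adventitial cells than Rbfox1, Egfem1 and Vsnl1 did, and Egfem1 in the tdT-negative library was 1.06-fold the intermediate level (95% interval 1.06 to 1.07). Trpc6 followed with 109 and 131 CPM in immature cells, against 50.0 and 95.3 CPM in intermediate cells, 17.1 and 28.1 CPM in terminal cells and 2.43 CPM in adventitial cells. In both GFP-high libraries only Pdgfra of the 5 was at least 1.5-fold higher in immature than in intermediate cells, and 4 of 5, all but Egfem1, were so against terminal cells.

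**Figure D1:**
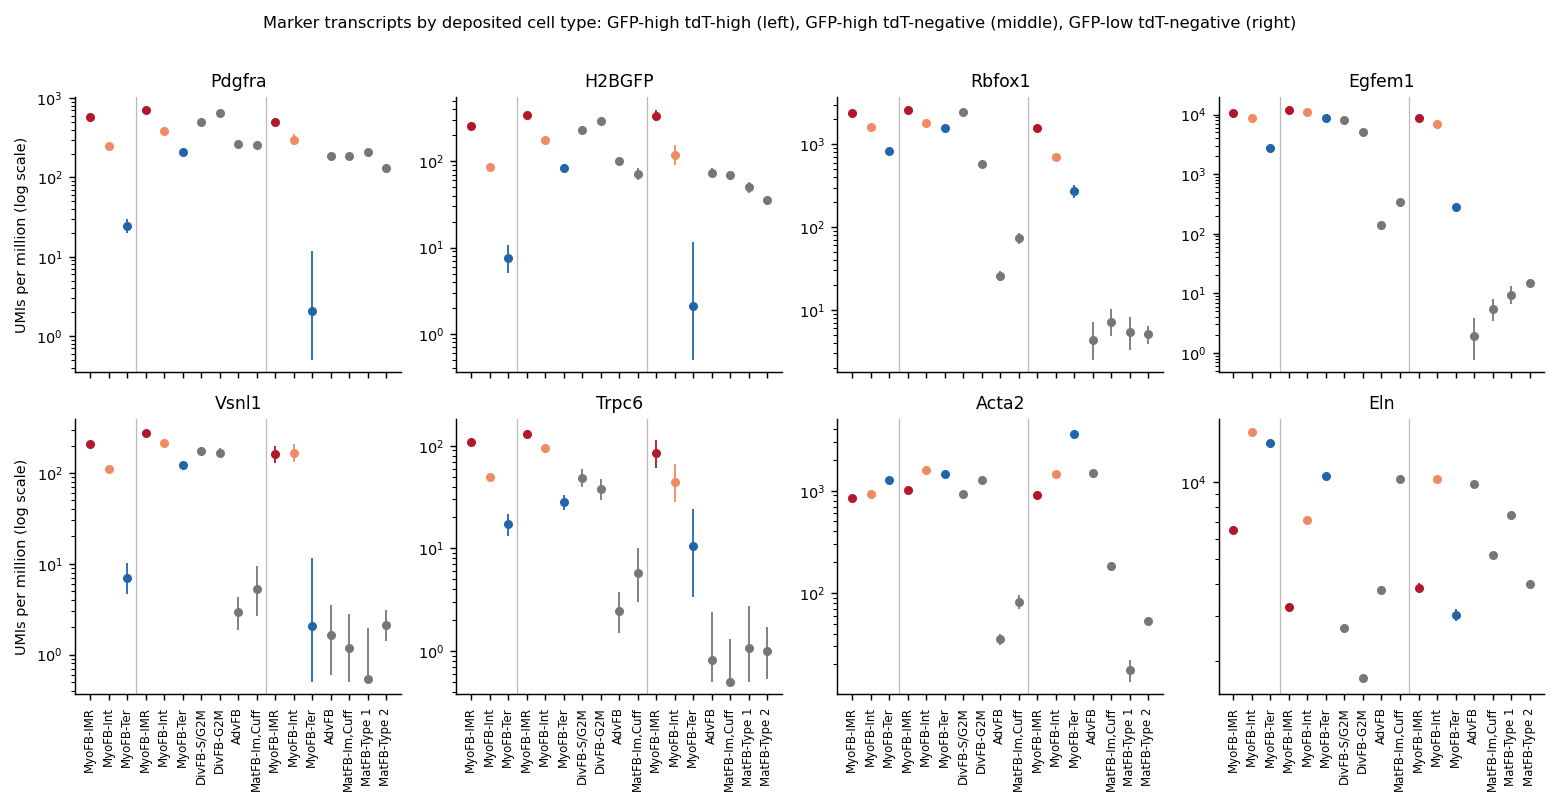
Levels of the marker genes, the H2BGFP reporter, Acta2 and Eln by annotated type, in CPM on a log axis, with 1 point per type in the tdT-high (left), tdT-negative (middle) and GFP-low (right) libraries and bars for the 95% Poisson interval, where values and bounds under 0.5 CPM are drawn at 0.5 CPM. Pdgfra stands at 587 and 699 CPM in tdT-high and tdT-negative immature cells, against 24.6 CPM in tdT-high terminal cells, and its lowest point is that of the 23 GFP-low terminal cells.

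Summed levels of markers of other cell types in the immature cells ranged widely between lists. Summed over 14 epithelial markers the level was 6.76 CPM in tdT-high and 13.4 CPM in tdT-negative immature cells, and Epcam was at 0 in the tdT-negative ones. The 12 immune markers summed to 38.5 and 44.8 CPM, of which Csf1r, the receptor for colony stimulating factor 1, gave 20.1 and 21.6 CPM, and Ptprc was at 0 in the tdT-high cells. The 12 endothelial markers summed to 104 and 135 CPM, most of it Ramp2, a partner subunit of the adrenomedullin receptor, at 61.0 and 93.1 CPM, while Kdr was at 0 in both. Sums for 10 mesothelial markers (16.8 and 10.4 CPM) and 7 erythroid markers (12.8 and 10.7 CPM) were low. The 14 adventitial markers reached 377 and 475 CPM, of which Cd34 was 279 and 363 CPM, and the 8 glial and neuronal markers 230 and 232 CPM, of which S100b was 215 and 216 CPM. Against intermediate cells the few markers of these types that were counted in both GFP-high libraries moved both ways. Over all genes 4.17% were at least 1.5-fold higher and 3.08% lower in both libraries. Both counted endothelial markers were higher, with Pecam1, an endothelial adhesion molecule, at 34.0 and 30.1 CPM in immature cells against 12.6 and 13.9 CPM in intermediate cells. Both counted immune markers were higher as well, Csf1r against 7.07 and 8.83 CPM in intermediate cells and Lyz2, lysozyme, at 9.96 and 16.6 CPM against 3.34 and 9.79 CPM. S100b, higher too and 1 of 2 counted glial and neuronal markers, stood against 88.7 and 127 CPM in intermediate cells. Of 3 counted adventitial markers Cd34 was higher and Col14a1 lower, and the 1 counted mesothelial marker, Nkain4, was lower. The part of these transcripts in the other differences was not tested.

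Against intermediate myofibroblasts, immature cells carried more transcript for stanniocalcin-1, Tafa1 and Piezo2 among others, and far less for asporin and osteoglycin. A gene was counted when its mean over both types was at least 5 CPM and they held at least 10 UMIs together, and called higher or lower at 1.5-fold on CPM with 1 added. In the tdT-negative library 623 of 11362 counted genes (5.48%) were higher in immature cells and 434 (3.82%) were lower. In the tdT-high library 957 of 11457 (8.35%) were higher and 603 (5.26%) were lower. Both libraries shared 464 higher genes, 4.17% of the 11122 counted in both, and 343 lower genes, 3.08%. The shared higher genes were 48.5% of the tdT-high and 74.5% of the tdT-negative calls, the shared lower genes 56.9% and 79.0%, and no gene was called in opposite directions. The excess of higher over lower calls depended on the scaling: with trimmed-mean (TMM) factors 709 genes were higher and 797 lower in the tdT-high library, and 487 higher and 548 lower in the tdT-negative library. The median gene moved from a log2 ratio of 0.068 to -0.036 in the tdT-high library and from 0.039 to -0.037 in the tdT-negative library.

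Among the genes with the highest ratios in both libraries, Stc1, the secreted glycoprotein stanniocalcin-1, stood at 112 and 189.9 CPM in tdT-high and tdT-negative immature cells, against 9.80 and 37.1 CPM in intermediate cells. That is 11.4-fold (9.78 to 13.5) and 5.11-fold (4.77 to 5.49) higher. Thinned to 5000 UMIs per cell, 23.3% and 41.2% of immature cells kept a Stc1 UMI, against 4.24% and 13.4% of intermediate cells and 0.526% and 3.30% of terminal cells; tdT-negative adventitial cells gave 11.3%. Tafa1, a secreted chemokine-like protein, had 378 and 660.4 CPM in immature cells, against 64.6 and 197 CPM in intermediate cells. Piezo2, a mechanically gated cation channel, had 248 and 377 CPM in immature cells, against 32.5 and 119 CPM in intermediate cells. For all 3 the level in each immature library lay above the level in both intermediate libraries.

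Mgp, matrix Gla protein, an inhibitor of calcification, was 3.77-fold (3.72 to 3.83) higher in tdT-high and 2.35-fold (2.33 to 2.38) higher in tdT-negative immature cells, at 4929 and 5009.9 CPM against 1306 and 2131 CPM. Zmat4, a zinc finger protein, had 176 and 222 CPM in immature cells, against 30.02 and 87.8 CPM in intermediate cells. Enzymes and receptors among the leading genes included the soluble adenylyl cyclase Adcy10 (4.03-fold and 3.08-fold higher), the kinase Cdkl4 (3.35-fold and 2.56-fold), the cell-surface glypican Gpc6 (2.71-fold and 2.92-fold) and the semaphorin receptor Plxna2 (3.50-fold and 2.31-fold). Cc2d2b, the kelch-family protein Klhl2 and Ramp2 completed the 12, with ratios between 2.37 and 4.63.

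On the lower side Aspn, asporin, a small leucine-rich matrix protein, had 58.8 and 8.59 CPM in tdT-high and tdT-negative immature cells, against 1673 and 268 CPM in intermediate cells. It was 28.4-fold (26.3 to 30.8) lower in tdT-high and 31.3-fold (26.9 to 36.5) lower in tdT-negative immature cells. Ogn, osteoglycin, of the same protein family, had 10.9 and 4.32 CPM in immature cells, against 164 and 58.4 CPM in intermediate cells. Neither gene was absent: at 5000 UMIs 13.1% of tdT-high and 3.68% of tdT-negative immature cells held an Aspn UMI, against 73.0% and 26.0% of intermediate cells, and free RNA in the droplets could give part of such low shares. Col12a1, a fibril-associated collagen, had 44.4 and 19.2 CPM in immature cells, against 310.1 and 131 CPM in intermediate cells. Nox4, an NADPH oxidase that makes hydrogen peroxide, had 107 and 60.6 CPM in immature cells, against 541 and 264 CPM in intermediate cells. The other lower genes were Kctd16, an auxiliary subunit of GABA-B receptors (9.75-fold and 14.6-fold), Pappa2, a protease of IGF-binding proteins (7.06-fold and 8.34-fold), the metalloprotease Adam33, the cadherins Cdh4 and Pcdh7, the matrix-associated Itih5, the guidance factor Ntn1 and the placental growth factor gene Pgf, the last 3.51-fold and 4.98-fold lower.

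**Figure D2:**
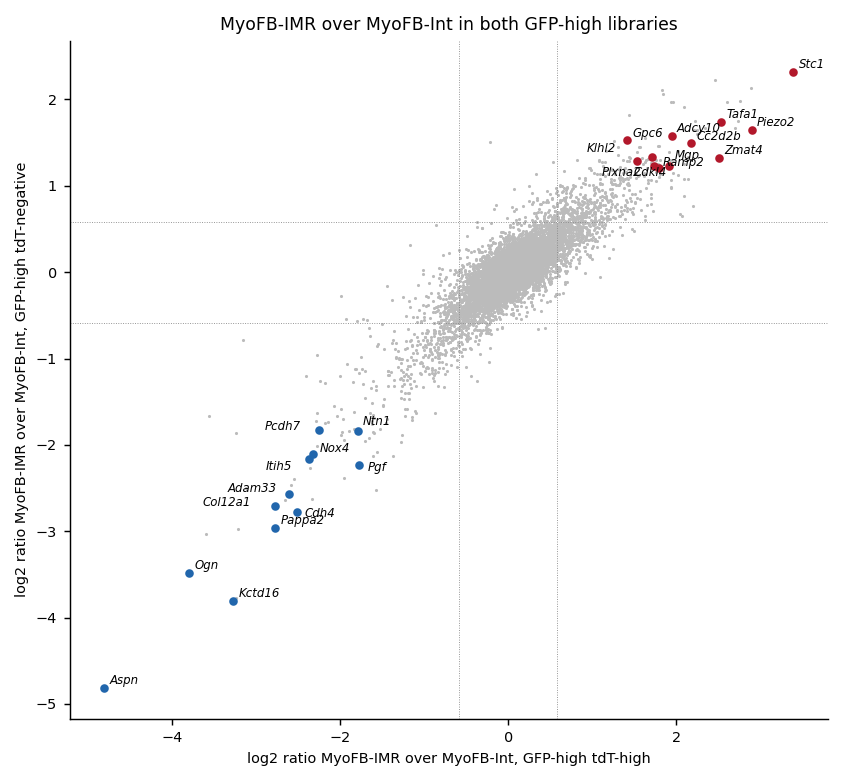
The log2 ratio of immature over intermediate cells for each gene counted in both GFP-high libraries, tdT-high against tdT-negative, with the genes of highest and lowest ratio named by rank labelled and lines at 1.5-fold. Aspn lies at -4.81 on both axes and Stc1 at 3.39 in the tdT-high and 2.32 in the tdT-negative library.

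In each of the matrix lists more members were lower than higher in immature against intermediate cells. The lists below give members past 1.5-fold in both GFP-high libraries, for which the background over all genes is 4.17% higher and 3.08% lower. Of 18 counted elastic fibre genes 8 were lower and 1 was higher, with a list median log2 ratio of -0.42 in the tdT-high and -0.33 in the tdT-negative library, where the median of all genes was 0.068 and 0.039. Eln, elastin, had 6507 and 3239 CPM in tdT-high and tdT-negative immature cells, against 15714 and 7132 CPM in intermediate cells. That is 2.41-fold (2.40 to 2.43) and 2.20-fold (2.18 to 2.22) lower, with no overlap between immature and intermediate libraries. Its crosslinking enzyme Lox had 41.7 and 21.0 CPM in immature cells, against 131 and 73.3 CPM in intermediate cells, and Loxl1 and Loxl2, of the same family, were between 2.34-fold and 2.64-fold lower. The microfibril protein Mfap4 had 102 and 58.1 CPM in immature cells, against 334 and 162 CPM in intermediate cells. Fbln5, fibulin-5, which tethers elastin to cells, was 2.65-fold and 2.14-fold lower, and Mfap5 and fibronectin (Fn1) were lower too. Fbln1, another fibulin, was the 1 exception, at 165 and 189.6 CPM in immature cells against 92.8 and 123.3 CPM in intermediate cells, and under TMM scaling it no longer passed in both libraries.

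Of 21 counted collagen genes 9 were lower and 4 were higher, with list medians of -0.40 in the tdT-high and -0.31 in the tdT-negative library. The fibrillar Col1a1 had 873 and 550.1 CPM in immature cells, against 1416 and 865 CPM in intermediate cells, and Col3a1 had 2248 and 1506 CPM against 3810.0 and 2328 CPM. Col14a1, which binds fibrils as Col12a1 does, was 4.12-fold and 2.38-fold lower. Of the 4 higher genes Col24a1, a fibrillar collagen, was at 266 and 383 CPM in immature cells against 76.0 and 166 CPM in intermediate cells. Col8a1, Col23a1 and Col25a1 were the others. Of 28 counted matricellular proteins and proteoglycans 11 were lower and 3 higher, with medians of -0.58 in the tdT-high and -0.56 in the tdT-negative library. Thbs1, thrombospondin-1, an activator of latent TGF-beta, had 225 and 128 CPM in immature cells, against 632 and 376 CPM in intermediate cells, and Postn, periostin, had 43.2 and 20.8 CPM against 113 and 36.6 CPM. Prelp, Spon1 and Gpc6 were higher, by 1.57-fold to 2.99-fold in the tdT-negative library.

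Basement membrane and integrin genes ran the other way. Of 19 counted laminins, nidogens and integrins 6 were higher and none was lower in both libraries, with medians of 0.30 in the tdT-high and 0.09 in the tdT-negative library. Lama2, the laminin α2 chain, had 469 and 588 CPM in immature cells, against 289 and 353 CPM in intermediate cells, and Itga1, the α1 integrin chain that binds collagen and laminin, had 151 and 181 CPM against 80.5 and 103 CPM. Lamc3, the laminin γ3 chain, had 31.8 and 50.7 CPM in immature cells, against 6.08 and 15.5 CPM in intermediate cells. Nid2 and Itga4 were higher as well. Under TMM scaling 5 of the 6 remained past the threshold.

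**Figure D3:**
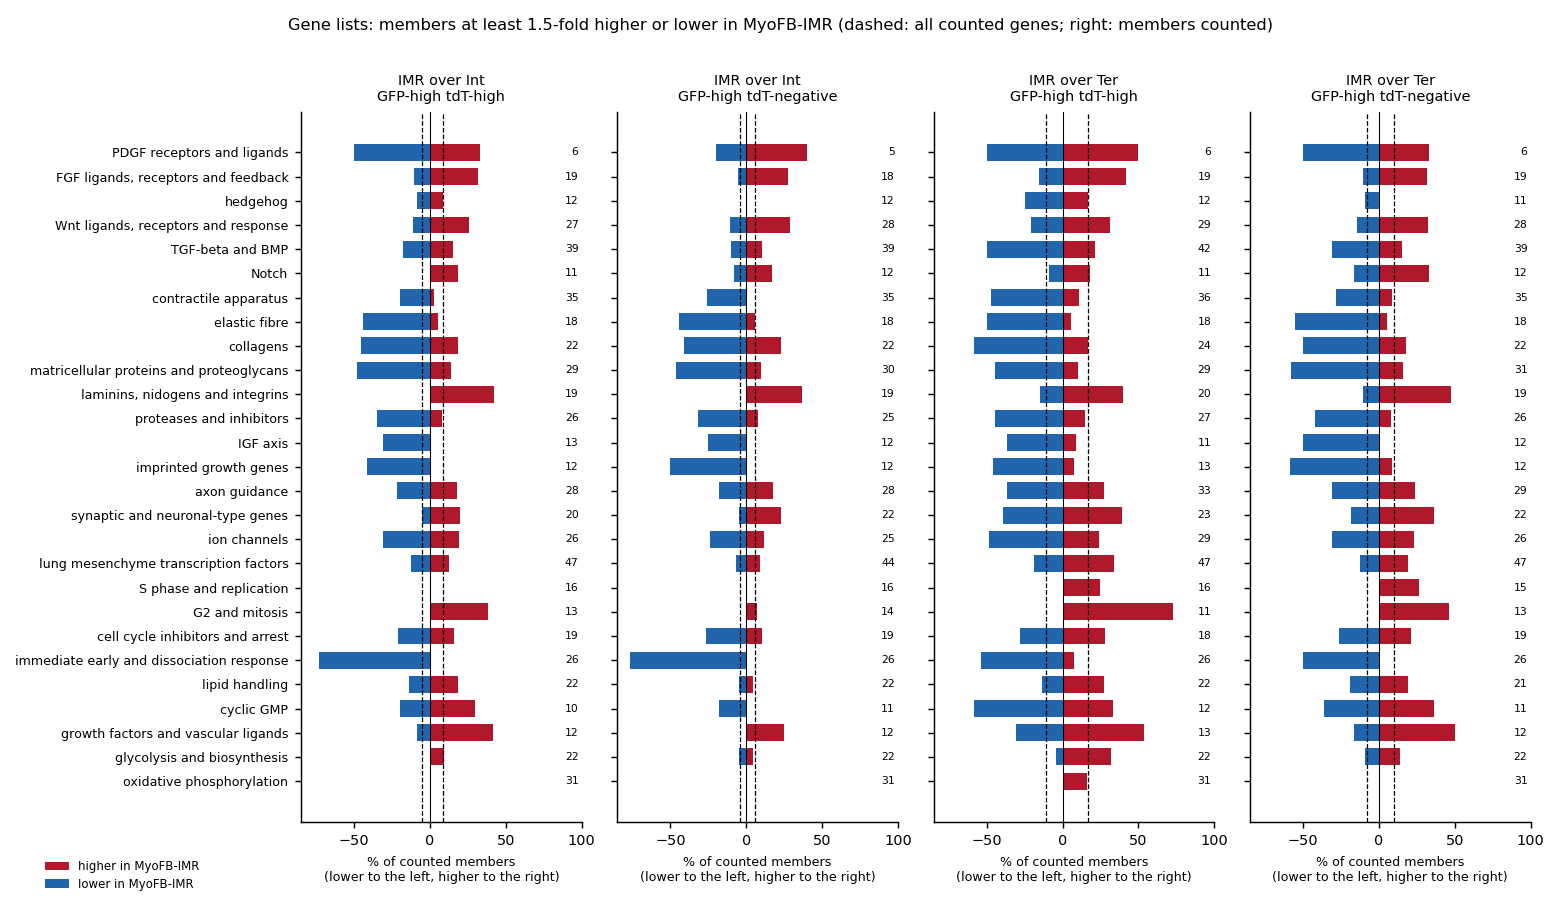
Share of counted members of each gene list, in percent, that were higher (right) or lower (left) in immature than in intermediate or terminal cells, with 1 panel per comparison and GFP-high library, dashed lines at the share of all counted genes and the number of members counted at the right edge. Over intermediate cells the elastic fibre list has 8 of 18 members lower in each library, and the laminin list has 8 of 19 higher in the tdT-high and 7 of 19 in the tdT-negative library.

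The contractile genes were at levels near or below those of intermediate cells. Of 35 counted members none was higher and 6 were lower in both libraries, with medians of -0.10 in the tdT-high and -0.25 in the tdT-negative library. Acta2, smooth muscle α-actin, had 839.6 and 1008 CPM in tdT-high and tdT-negative immature cells, against 923 and 1596 CPM in intermediate cells, and was 1.58-fold (1.56 to 1.61) lower in the tdT-negative library, and lower by under 1.5-fold in the tdT-high library. Tagln, transgelin, had 1165 and 1238 CPM against 1468 and 2030.2 CPM, and Myh11, smooth muscle myosin heavy chain, 694 and 702 CPM against 722 and 884 CPM. Immature cells therefore carried these 3 transcripts at levels whose ratios to intermediate cells spanned 0.610 to 0.961. The 6 lower genes included Myocd, the cofactor of serum response factor in smooth muscle, with 60.0 and 48.9 CPM in immature cells against 139 and 90.3 CPM in intermediate cells, and calponin, Cnn1, with 4.75 and 4.22 CPM against 19.4 and 17.4 CPM. Tpm1, Lmod1, Des and Fhod3 were the others.

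Among growth factor receptors, targets and ligands, the FGF list had 5 higher and 1 lower of 18 counted genes, with medians of 0.23 in the tdT-high and 0.22 in the tdT-negative library. Fgf18, whose locus drives the lineage label, was the lower one, with 49.5 and 35.0 CPM in immature cells against 101 and 70.4 CPM in intermediate cells. The CreERT2 transcript had 13.5 and 11.0 CPM against 34.1 and 23.8 CPM. The 5 higher members were Fgf10, Fgfr4 and 3 genes known as feedback inhibitors or targets of FGF signalling. Of the last, Spry4, a Sprouty inhibitor, had 40.3 and 43.1 CPM in immature cells against 14.5 and 25.4 CPM in intermediate cells. Etv5, an ETS transcription factor, had 45.9 and 56.6 CPM against 16.7 and 27.5 CPM, and Etv4 had 22.4 and 28.0 CPM against 7.39 and 17.2 CPM. Of the receptors, Fgfr4 had 20.2 and 31.8 CPM in immature cells against 5.26 and 12.8 CPM in intermediate cells. The ligand Fgf10 was low in both, at 10.6 and 7.51 CPM in immature cells against 6.19 and 4.27 CPM in intermediate cells. Of 5 counted PDGF genes the receptors Pdgfra and Pdgfrb were higher and the ligand Pdgfd lower, at 6.76 and 2.16 CPM against 71.2 and 23.9 CPM, and under TMM scaling Pdgfrb no longer passed in both libraries. None of 12 counted hedgehog genes passed in both libraries. Hhip, a hedgehog-binding inhibitor, had 161 and 85.3 CPM in immature cells against 284 and 86.4 CPM in intermediate cells.

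The Wnt list split, with 7 members higher and 3 lower of 27 counted, and a median near that of all genes (0.08 in the tdT-high and 0.15 in the tdT-negative library), which turned to -0.03 in the tdT-high library under TMM scaling. Lef1, the transcription factor through which β-catenin acts, had 223 and 300.5 CPM in immature cells against 69.8 and 146 CPM in intermediate cells, and Tcf7, of the same family, 60.1 and 81.1 CPM against 32.3 and 45.3 CPM. The secreted Wnt inhibitors Notum and Wif1 were higher, Notum at 23.5 and 40.8 CPM against 5.53 and 14.9 CPM. Lgr5, an R-spondin receptor, had 35.0 and 31.3 CPM in immature cells against 11.6 and 13.7 CPM in intermediate cells, while its relative Lgr6 had 129.9 and 58.1 CPM against 294 and 102 CPM. Among ligands Wnt4 and Wnt5b were higher and Wnt5a lower, the last at 475 and 301 CPM in immature cells against 873 and 595 CPM in intermediate cells. Axin2, a target of β-catenin, did not pass in either library, with log2 ratios of -0.33 and 0.14. Of 39 TGF-beta and BMP genes 4 were higher and 4 lower. They included Tgfbr1, the type I receptor, at 96.4 and 88.6 CPM against 183 and 154 CPM, and Ltbp1, which holds latent TGF-beta in the matrix, at 20.1 and 10.3 CPM against 63.5 and 35.1 CPM.

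Of 44 counted transcription factors 4 were higher and 2 lower. Runx2, known from osteoblasts, had 29.96 and 45.4 CPM in immature cells against 6.63 and 16.6 CPM in intermediate cells, and Twist1, a mesenchymal factor, 36.4 and 41.3 CPM against 18.6 and 25.4 CPM. Sox6 and Lef1 were the other higher ones, and Klf2 and Klf4, also immediate early genes, were lower. None of 26 counted immediate early and dissociation genes was higher and 18 were lower, with list medians of -0.82 in the tdT-high and -1.04 in the tdT-negative library. Fos had 372 and 266 CPM in immature cells against 842 and 700.0 CPM in intermediate cells, and Junb 274 and 243 CPM against 489 and 485 CPM. In an alternative chosen after the data were seen, the comparison was repeated in the 221 tdT-high and 529 tdT-negative immature cells and the 239 and 406 intermediate cells whose immediate early share was at most 0.167%, the median of immature cells. With these cells 425 genes were higher and 345 lower in both libraries. The elastic fibre list again had 8 members lower and 1 higher, the contractile list 6 lower, the laminin list 6 higher, the FGF list 4 higher and 1 lower, and the immediate early list itself 5 lower and 2 higher. The last counts are bound to the choice of cells, which were picked by these same genes. With all cells thinned to 5000 UMIs 459 genes were higher and 345 lower in both libraries, and with ribosomal, mitochondrial and haemoglobin genes left out of the totals 565 and 329. Under both alternatives 8 elastic fibre and 6 contractile genes were lower and 6 laminin-list genes higher, while the FGF list had 4 and 6 higher.

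Terminal myofibroblasts stood farther from the immature cells, and in the tdT-high library much farther. In that library 1908 of 11563 genes (16.5%) were higher in immature cells and 1265 (10.9%) lower, and in the tdT-negative library 1124 of 11402 (9.86%) were higher and 882 (7.74%) lower. Both libraries held 812 higher genes, 7.33% of 11078, and 616 lower, 5.56%, while 6 genes higher and 15 genes lower in the tdT-negative library were called the other way in the tdT-high library. With TMM factors the split was 1441 higher and 1620 lower in the tdT-high library and 933 and 1037 in the tdT-negative library. Only 190 tdT-high and 303 tdT-negative terminal cells enter, and the tdT-high ones carried little reporter transcript for a GFP-high gate (7.51 CPM) and much Hhip (1468 CPM, against 319 CPM in the tdT-negative ones).

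Several of the genes highest over intermediate cells were again among the 12 highest over terminal cells, and both comparisons use the same immature libraries. Gpc6, by contrast, was not at least 1.5-fold higher over terminal cells in both libraries. Stc1 was at 2.07 and 7.16 CPM in terminal cells, 54.2-fold (27.4 to 126) and 26.5-fold (19.3 to 37.6) below the immature level. Zmat4 was at 2.33 and 21.7 CPM, Tafa1 at 24.6 and 94.4 CPM, Mgp at 259 and 927 CPM and Col24a1 at 17.9 and 60.5 CPM in terminal cells, all lower there than in immature cells by at least 5.40-fold. Cdh11, a mesenchymal cadherin, had 617 and 783 CPM in immature cells, against 25.6 and 159 CPM in terminal cells. Piezo2, Prr5l, Adcy10, Raver2, Trpc6 and Klhl2 made up the rest of the 12 highest. Growth factors and vascular ligands had 6 of 12 members higher and 2 lower in both libraries. Hgf, hepatocyte growth factor, had 32.2 and 50.8 CPM in immature cells, against 0.518 and 10.4 CPM in terminal cells, and Kitl, the KIT ligand, 46.7 and 68.1 CPM against 4.66 and 21.5 CPM. The angiopoietin genes Angpt1 and Angpt2 and the vascular endothelial growth factor gene Vegfa were the others beside Stc1.

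The lower genes were led by Aspn, at 58.8 and 8.59 CPM in immature cells against 7272 and 1708 CPM in terminal cells, 124-fold (114 to 134) and 199-fold (171 to 232) lower. At 5000 UMIs all of the tdT-high and 64.7% of the tdT-negative terminal cells held an Aspn UMI. Rgs5, a regulator of G protein signalling known from pericytes, had 11.2 and 1.13 CPM in immature cells, against 456 and 96.4 CPM in terminal cells. Gja1, the gap junction protein connexin 43, had 6.12 and 2.40 CPM against 433 and 80.0 CPM, and Bdnf, a neurotrophin, 11.1 and 2.06 CPM against 136 and 68.2 CPM. These 4 differed by over 10-fold in each library. Col12a1, Kctd16, Cdh4, the formin Fhod3, the cadherin-like Fat3, the thyroid hormone receptor Thrb, Ogn and Myof made up the other lower genes named by rank. Elastic fibre genes had 9 members lower and 1 higher of 18, and collagens 11 lower and 4 higher of 22. Matricellular genes had 13 lower and 2 higher of 29, and contractile genes 8 lower and 2 higher of 35, beside 5.56% and 7.33% of all genes. Eln had 14245 and 10556 CPM and Myocd 365 and 179 CPM in terminal cells, each above both immature levels.

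A row of 4 small leucine-rich or related matrix genes lies in tandem on chromosome 13, and it was singled out after its values were seen, since Aspn and Ogn led the lower genes. On the plus strand of GRCm38 (GENCODE M21), Ecm2 spans chr13:49504810-49532789, Aspn chr13:49544443-49567565, Omd chr13:49582462-49592822 and Ogn chr13:49608046-49624501. All 4 lie within Cenpp (chr13:49464023-49652785), a centromere protein gene on the minus strand. Ecm2, extracellular matrix protein 2, had 18.9 and 12.5 CPM in tdT-high and tdT-negative immature cells, against 39.1 and 23.6 CPM in intermediate and 121 and 41.4 CPM in terminal cells. Omd, osteomodulin, had 2.37 and 0.932 CPM in immature cells, against 13.5 and 4.12 CPM in intermediate and 45.3 and 18.6 CPM in terminal cells. All 4 were thus lower in immature cells in every one of these comparisons, Ecm2 least, at log2 ratios of -1.01 and -0.86 to intermediate cells. Cenpp was lower as well, at 29.9 and 20.4 CPM in immature cells against 135 and 69.9 CPM in intermediate cells, but the sources used here do not say whether reads were counted by strand, so its reads and those of the genes inside it cannot be told apart with certainty. None of the 4 genes flanking the row passed 1.5-fold against intermediate cells: Nol8, the next one downstream, had log2 ratios to intermediate cells of 0.09 and 0.02, and Iars, after it, -0.17 and 0.08. Upstream, Ippk had -0.22 and -0.57, and Bicd2 -0.23 and -0.51. Against terminal cells Ippk did pass in both libraries, at -0.63 in the tdT-high and -0.99 in the tdT-negative library, while Bicd2, Nol8 and Iars lay between -0.58 and -0.14.

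The sequences just before the starts of the 4 genes are shown because all 4 were lower in immature than in intermediate and terminal cells. The 4 did not otherwise run together. In the tdT-high library Ogn was lower in terminal than in intermediate cells (109 against 164 CPM), while Ecm2, Aspn and Omd were higher. Each sequence is the 250 bases upstream of the RefSeq start (GRCm38.p6, plus strand, 5′ to 3′). Capitals mark matches on either strand to CTTTGA, the core of TCF/LEF sites, to GGAATG, the core of TEAD sites, or to TATAAA, the TATA box sequence, and the overlapping matches to TATAAA in Ogn are printed as 1 run.
Ecm2 (chr13:49504560-49504809): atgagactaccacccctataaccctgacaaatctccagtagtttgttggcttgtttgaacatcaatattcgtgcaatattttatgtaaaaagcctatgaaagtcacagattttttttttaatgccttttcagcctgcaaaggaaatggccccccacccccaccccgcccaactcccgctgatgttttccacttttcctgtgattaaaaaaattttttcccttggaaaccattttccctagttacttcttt
Aspn (chr13:49544193-49544442): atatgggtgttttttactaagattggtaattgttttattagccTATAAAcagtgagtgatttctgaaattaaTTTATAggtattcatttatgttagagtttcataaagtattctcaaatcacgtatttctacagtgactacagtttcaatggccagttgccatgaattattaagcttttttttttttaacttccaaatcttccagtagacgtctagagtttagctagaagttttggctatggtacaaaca
Omd (chr13:49582212-49582461): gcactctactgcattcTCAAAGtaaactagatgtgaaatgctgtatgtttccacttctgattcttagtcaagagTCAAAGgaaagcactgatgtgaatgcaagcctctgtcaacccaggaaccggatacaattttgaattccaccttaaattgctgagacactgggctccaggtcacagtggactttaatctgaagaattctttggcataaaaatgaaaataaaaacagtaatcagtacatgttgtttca
Ogn (chr13:49607765-49608014): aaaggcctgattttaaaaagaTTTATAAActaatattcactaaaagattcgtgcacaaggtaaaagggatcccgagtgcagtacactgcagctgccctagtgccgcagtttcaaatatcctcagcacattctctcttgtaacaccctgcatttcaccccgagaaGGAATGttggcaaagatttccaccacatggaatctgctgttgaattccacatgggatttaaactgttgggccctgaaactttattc
Ecm2 held none of these motifs, Aspn TATAAA or its complement at 207 and 178 bases before the start, Omd the complement of CTTTGA at 234 and 176 bases, and Ogn TATAAA matches at 229 and 227 bases and GGAATG at 86 bases. No motif was shared by all 4. Over 32851 promoters of the same length CTTTGA occurred in 13.8%, GGAATG in 12.6% and TATAAA in 12.4%, and a match is not evidence of a site.

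**Figure D4:**
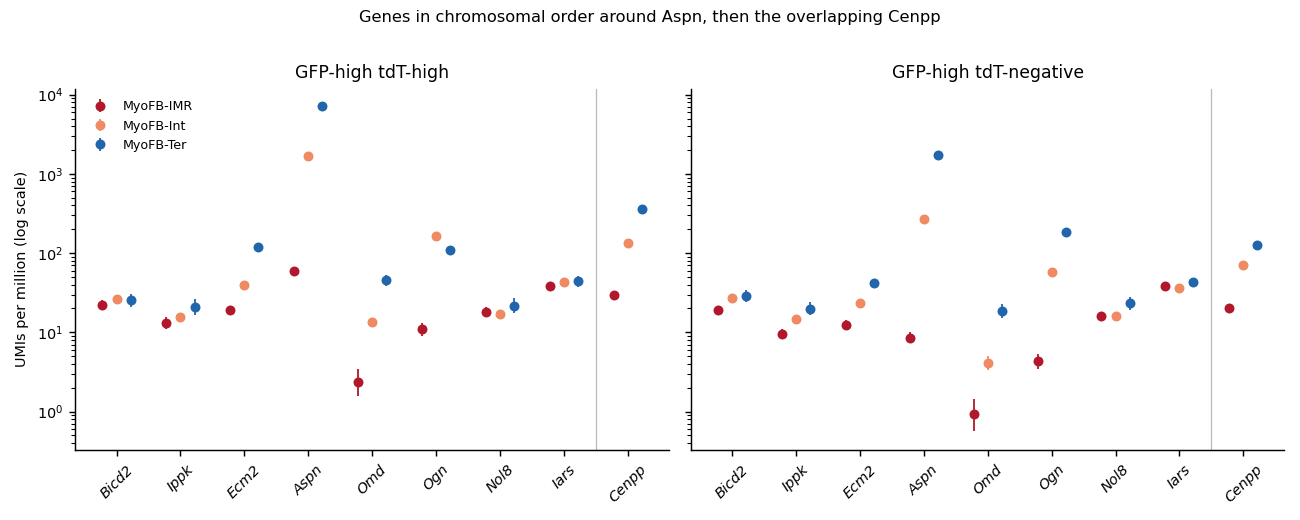
Levels in CPM on a log axis in immature, intermediate and terminal cells (colours) of the tdT-high (left) and tdT-negative (right) libraries, for 8 genes in their order along chromosome 13 and then Cenpp, with bars for the 95% Poisson interval. Immature cells are lowest for Ecm2, Aspn, Omd, Ogn and Cenpp in both panels, with Aspn at 58.8 and 8.59 CPM. They are also lowest in both panels, by smaller ratios, for the flanking Bicd2 (22.3 and 18.9 CPM) and Ippk (13.2 and 9.57 CPM). The points of Nol8 and Iars lie close together.

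Adventitial fibroblasts of the tdT-negative library were the most distant type compared. Of 11576 genes 3438 (29.7%) were higher in immature cells and 1835 (15.9%) lower, a split that turned with TMM scaling to 1776 and 2753, as the median gene shifted from 0.29 to -0.06. Rbfox1, Egfem1, Tafa1 and Vsnl1 were among the 12 genes with the highest ratios. Nrxn3, a presynaptic adhesion protein, had 2967 CPM in immature cells, against 42.2 CPM in adventitial cells, and Car2, a carbonic anhydrase, 893 CPM against 13.9 CPM. Tbx4, a lung mesenchyme transcription factor, had 575 CPM in immature cells, against 19.96 CPM in adventitial cells. Of 34 contractile genes 25 were higher in immature cells and none lower, with Acta2 at 1008 CPM against 35.0 CPM. Of 27 collagens 20 were lower, and the small proteoglycan Dcn, decorin, had 7.85 CPM in immature cells, against 6117 CPM in adventitial cells. Aspn was low here too, at 8.59 CPM in immature cells against 689 CPM. Immediate early genes took 1.40% of UMIs in these adventitial cells, against 0.305% in immature cells, and 22 of 26 were lower in immature cells.

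Genes higher in immature cells than in other types were sought in the tdT-negative library, where 6 other types had at least 50 cells. Types with fewer cells there were not compared. The search took 3621 genes at 50 CPM or more and seen in at least 10% of immature cells. Of these, 571 were highest in immature cells, but only 37 (1.02%) by 1.5-fold over each of the 6 types. Leaving out the dividing types, 88 genes (2.43%) passed. Zmat4 led, 2.52-fold over intermediate cells, followed by Fam171b (64.4 CPM, against 25.8 CPM in adventitial cells) and Crtam (57.4 CPM, against 25.3 CPM in intermediate cells). Stc1 was 2.19-fold over its next type, the dividing fibroblasts in G2M (86.7 CPM), and Tafa1 was 1.85-fold over the same type. Col24a1, Greb1, a hormone-responsive gene, the basement membrane protein gene Fras1, the giant cadherin Dchs2, the receptor Lrp4, Cdkl4 and the sodium-proton exchanger Slc9a9 were the others of the top 12, at 1.83-fold to 2.15-fold over the next type. The tdT-high library did not enter this ranking, and there Dchs2 was at 223 CPM in immature against 191 CPM in terminal cells.

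Within the immature type, tdT-high cells differed from tdT-negative cells in few genes. Of 11630 counted genes 316 (2.72%) were higher and 140 (1.2%) lower in tdT-high immature cells. These calls compare 1 library with another, so gate and library cannot be told apart. The label itself was seen as the TDT transcript, at 47.0 CPM in tdT-high and 2.45 CPM in tdT-negative immature cells, and as Gt(ROSA)26Sor, the transcript of the targeted locus, at 68.7 CPM against 8.24 CPM. Aspn was 6.85-fold (5.79 to 8.14) higher, at 58.8 CPM in tdT-high against 8.59 CPM in tdT-negative immature cells, and Kctd16 4.14-fold higher. Eln was at 6507 CPM in tdT-high against 3239 CPM in tdT-negative immature cells, and Igfbp5, an IGF-binding protein, at 203 CPM against 85.7 CPM. The matrix genes Eln, Lox, Mfap4, Loxl1 and Loxl2 were higher, 5 of 17 counted elastic fibre genes, and none of the 17 was lower.

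On the lower side Stc1 had 112 CPM in tdT-high against 189.9 CPM in tdT-negative immature cells, Tafa1 378 CPM against 660.4 CPM, and Hs6st3, a heparan sulfate sulfotransferase, 113 CPM against 224 CPM. In the tdT-negative library Eln had a log2 ratio of -1.14, Aspn of -4.81, Stc1 of 2.32 and Tafa1 of 1.74 over intermediate cells. For tdT-high over tdT-negative immature cells these genes had 1.01, 2.64, -0.75 and -0.80. Other genes did not run opposite in this way. Mgp had 1.23 over tdT-negative intermediate cells. Its mean at 5000 UMIs per cell was 24.5 in tdT-high and 25.6 in tdT-negative immature cells. Acta2 was lower in both comparisons. These comparisons share the tdT-negative immature cells and their likeness was not tested. Fgf18 was 49.5 CPM in tdT-high and 35.0 CPM in tdT-negative immature cells, and Acta2 839.6 and 1008 CPM, within 1.5-fold of each other. None of the 5 markers passed 1.5-fold. Cdk8 (4308 CPM against 1256 CPM) and Cmss1 (7995 CPM against 4115 CPM) were also higher in tdT-high cells, as was the ribosomal RNA repeat Rn18s-rs5, whose mean at 5000 UMIs per cell was 227 in tdT-high against 130 in tdT-negative immature cells. Their part in the other differences was not tested.

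Immature cells also varied among themselves. At 5000 UMIs per cell the variance over the mean exceeded 2 in both libraries for 220 of 4033 genes, whose medians were 1.17 in tdT-high and 1.15 in tdT-negative cells. Rn18s-rs5 (42.0 in tdT-high and 26.8 in tdT-negative cells), the nuclear RNA Malat1 (25.1 and 28.6), Mgp (28.2 and 21.6) and Eln (21.1 and 15.2) varied most, followed by Nrxn3, Egfem1, Rbfox1, Fmo2, Fos, Robo2, Tafa1 and Acta2. Of these 12 genes 11 stayed among the 12 most variable without cells holding Mki67 or Top2a. The median cell held 25 Eln UMIs in tdT-high and 11 in tdT-negative immature cells, against 76 and 31 in intermediate cells, and 8.14% and 14.1% of immature cells exceeded the intermediate median. For Pdgfra the median was 3 UMIs in immature cells of both libraries, against 1 in intermediate cells of both, and 70.7% and 78.4% of immature cells exceeded that. The types therefore overlapped cell by cell in both genes.

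**Figure D5:**
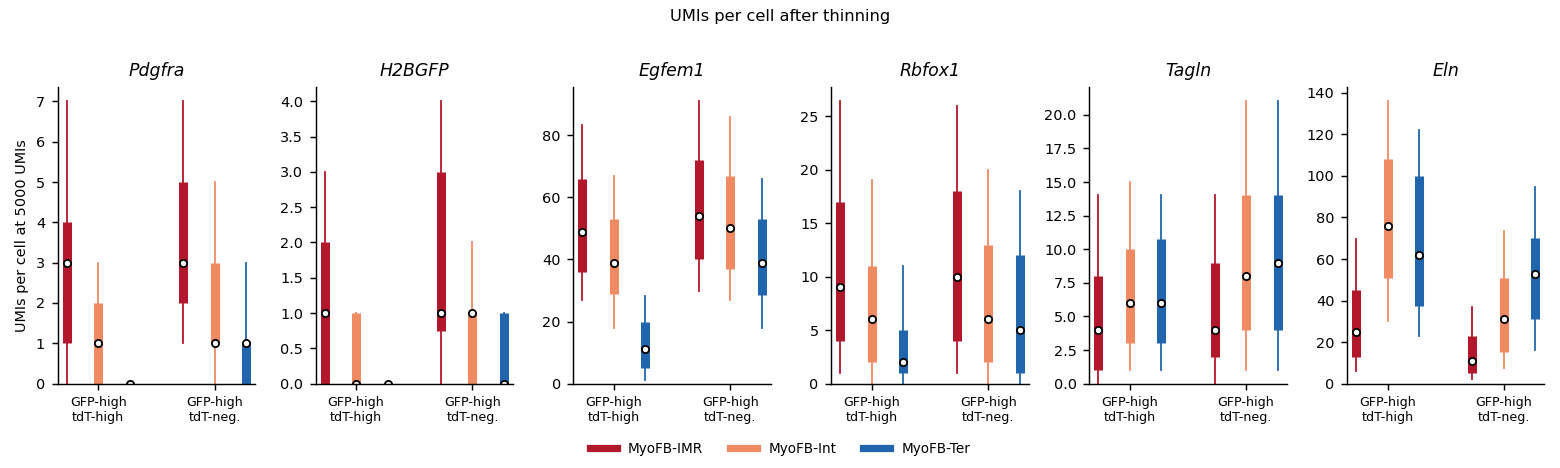
UMIs per cell after thinning every cell to 5000 UMIs, for immature, intermediate and terminal cells of both GFP-high libraries, with the median, the quartiles and the 10th and 90th percentiles. Eln has a median of 25 in tdT-high and 11 in tdT-negative immature cells, below the other types, and Pdgfra a median of 3 in both, above them.

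At 5000 UMIs, 10.3% (7.68 to 13.4) of tdT-high and 13.6% (11.5 to 15.8) of tdT-negative immature cells held a UMI of Mki67 or Top2a, genes of dividing cells, against 7.87% and 12.2% of intermediate, 5.26% and 8.91% of terminal cells and 1.83% of tdT-negative adventitial cells. With all UMIs the shares were 36.0% and 33.8% of immature cells, against 27.8% and 33.1% of intermediate and 15.3% and 26.4% of terminal cells. Among the 30 nearest neighbours of an immature cell by expression, on average 77.3% in the tdT-high and 79.9% in the tdT-negative library were immature as well. Intermediate cells made up 21.7% and 18.9%, terminal cells 0.0143% and 0.588% and dividing fibroblasts 1.06% and 0.633%. In 55 tdT-high and 94 tdT-negative immature cells (11.8% and 9.11%) fewer than 50% of the neighbours were immature.

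The 21 immature cells of the GFP-low library carried Pdgfra at 502 CPM (442 to 568) and H2BGFP at 337 CPM. Pdgfra thus lay below both GFP-high immature levels, and H2BGFP was close to the tdT-negative immature level. Egfem1 was at 8736 CPM, Eln at 3859 CPM, Aspn at 36.1 CPM, Stc1 at 44.2 CPM and Hhip at 337 CPM. These values rest on few cells of 1 library. The Hhip level rests largely on the highest cell. With every cell thinned to equal depth, Hhip had a median of 0 UMIs and an upper quartile of 1 in these 21 cells. The highest cell held 30 Hhip UMIs, against a mean of 2.10.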

How the data were processed

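Per the submitters' processing notes, reads were processed with Cell Ranger 7.0.0 and the mm10 build. The authors deposited raw UMI counts per gene and cell (31730 genes, 6142 cells), in which cells held 2504 to 7499 genes and 5446 to 58130 UMIs. The filter on cells, any removal of doublets and the way types were named are not given in the sources used here. The deposited percent of mitochondrial UMIs reached 19.3% per cell, and with the deposited library and cell type names it came in the same table. Per-cell sums of the matrix equalled the deposited totals in all 6142 cells. Doublets were not called again, and no cell was left out.

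UMIs were summed per type and library and scaled to CPM. Ratios and their intervals (exact conditional binomial) use CPM as they are; log2 ratios and the 1.5-fold threshold use CPM with a pseudocount of 1. Levels have Poisson and shares Clopper-Pearson intervals. Counts were compared by ratio only, with no test, because each gate is 1 library. These are 3′ counts, so levels were not compared between genes. Thinning drew 5000 UMIs per cell, and neighbours came from 30 principal components. Analyses used scikit-learn 1.9.0, scipy 1.17.1 and numpy 2.4.6 under Python 3.11.15; edgeR 4.0.16 and DESeq2 1.42.0 gave scaling factors only. The scripts were tested on simulated counts. Of the gene names, 30176 matched GENCODE M21, and promoters came from RefSeq.

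The cells and gene lists (27 pathway and 12 marker lists) were chosen with earlier results of these data known. Genes named by rank are the 12 highest and lowest ratios per comparison among genes at 50 CPM and in 10% of cells of the higher group, ranked for intermediate and terminal cells by the smaller ratio of the GFP-high libraries, without unnamed, sex-linked, haemoglobin, mitochondrial or ribosomal protein genes. Beside them stand the 12 genes highest over every other type of at least 50 cells in the tdT-negative library, the 12 most variable and the most abundant members of each list. Some genes that these rules select are not reported here. Other list members named were chosen after their values were seen. Alternatives were other scalings, pseudocounts, filters and cell subsets; cells of low immediate early share (at or below the immature median) were added after seeing the data.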

Additional observations from a re-analysis of the deposited data

Results flagged for a closer look

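In the 3 genes given here the ratio of immature over terminal cells passed 1.5-fold in opposite directions in the GFP-high libraries, among genes that reached 50 CPM in either cell type of either library. The difference between libraries was not tested, since each is 1 library. Hs6st3, a heparan sulfate sulfotransferase, had a log2 ratio of -0.67 in the tdT-high library, at 113 CPM in immature against 180.2 CPM in terminal cells, and 1.30 in the tdT-negative library, at 224 CPM against 90.6 CPM. Cadm1, an adhesion molecule of the immunoglobulin family, had 0.94 in the tdT-high library, at 55.4 CPM in immature against 28.5 CPM in terminal cells, and -0.60 in the tdT-negative library, at 36.1 CPM against 55.2 CPM. Cdo1, cysteine dioxygenase, had 1.07 in the tdT-high library, at 47.8 CPM in immature against 22.3 CPM in terminal cells, and -0.93 in the tdT-negative library, at 39.6 CPM against 76.3 CPM.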

How the results depend on the processing

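No paired analysis was possible because each gate is 1 library and no test was made. Of 172 counts of higher or lower genes under the alternatives, 130 stayed within 1.5 times the values given above. Without a CPM filter they were 2499 higher and 1024 lower over tdT-high intermediate cells, 1676 and 661 over tdT-negative ones, 4239 and 1976 over tdT-high terminal cells, 3115 and 1479 over tdT-negative ones, 6387 and 2996 over adventitial cells, and 895 and 399 for tdT-high over tdT-negative immature cells. At a mean of at least 20 CPM these were 355 and 377, 216 and 271, 919 and 712, 484 and 504, 1876 and 1105, and 106 and 48, as fewer genes are tested. With a pseudocount of 5, 611 genes were higher over tdT-high and 366 over tdT-negative intermediate cells, and 154 higher and 50 lower between immature libraries. Over adventitial cells 1776 were higher and 2753 lower with TMM factors, and 1721 and 2823 with DESeq2 factors. The tdT-high library in place of the tdT-negative one gave 957 higher genes over intermediate and 1908 over terminal cells.

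In cells with Xist and no Y-linked UMI, 967 genes were higher over tdT-negative intermediate cells, 1353 lower over tdT-negative terminal cells, and 674 higher and 592 lower between immature libraries; fewer cells enter. Between immature libraries, thinning gave 599 higher and 453 lower, 249 were lower without cells holding Mki67 or Top2a, and 244 were lower in cells of low immediate early share. Among genes and list medians past 1.5-fold, directions turned for the PDGF list over tdT-high terminal cells (0.65 at 20 CPM), the adventitial list there (0.69 without filter), Fos and the immediate early list there (0.19 and 0.11 in cells of low immediate early share), the pericyte, immune and immediate early lists over adventitial cells (0.34 and -0.29 without filter, 0.025 in those cells) and the endothelial list between immature libraries (0.19 without filter), and where no reason is named the cause was not tested. The cells of low immediate early share were picked by the immediate early list, Fos included, so the turns of Fos and of that list are bound to this choice. Of 2280 values of smaller list medians 222 had the other sign, among them Wnt, axon guidance and ion channels over intermediate cells with TMM factors (-0.03 and -0.02 in the tdT-high, -0.03 in the tdT-negative library). The largest median that turned among these was -0.58, just under 1.5-fold, of the immediate early list over tdT-negative terminal cells.

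Depth limits the GFP-low cells most, where a count of 0 allows 6.02 CPM.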

Other observations

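Other gene groups were counted in the same way between immature and intermediate cells, as members past 1.5-fold in both GFP-high libraries, against backgrounds of 4.17% higher and 3.08% lower. Of 12 counted imprinted growth genes 5 were lower and none was higher, with medians of -0.37 in the tdT-high and -0.51 in the tdT-negative library. Peg3, a zinc finger protein expressed from the paternal allele, had 90.2 and 70.0 CPM in tdT-high and tdT-negative immature cells, against 361 and 212 CPM in intermediate cells. The noncoding Meg3, expressed from the maternal allele, had 76.8 and 59.5 CPM in immature cells, against 209 and 149.8 CPM in intermediate cells. Cdkn1c, a cyclin-dependent kinase inhibitor, Rian and Zim1 were the others.

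The ion channel list split, with 3 higher and 6 lower of 25 counted genes and medians of -0.09 in the tdT-high and 0.05 in the tdT-negative library, the last -0.03 with TMM factors. Kcnk2, a potassium channel opened by stretch, had 80.0 and 126.0 CPM in immature cells, against 30.8 and 58.8 CPM in intermediate cells, and Cacna1d was higher too. Cacna1c, the calcium channel of smooth muscle contraction, had 789.9 and 596 CPM in immature cells, against 1383 and 1138 CPM in intermediate cells. Of 26 axon guidance genes 3 were higher (Sema3a, Sema3f, Plxna2) and 4 lower (Slit3, Ntn1, Ephb2, Efnb2), with medians of 0.09 and 0.20, the first -0.02 with TMM factors. Of 20 synaptic genes 3 were higher, Negr1 and Tenm3 among them, with medians of 0.11 and 0.30, the first -0.01 with DESeq2 factors. Of 12 growth factors and vascular ligands Hgf, Stc1 and Kitl were higher, with medians of 0.30 and 0.22.

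Of 25 proteases and inhibitors 2 were higher (Adamts14, Htra1) and 6 lower, with medians of -0.42 and -0.35, and of 12 IGF genes Igfbp5 and Pappa2 were lower, with medians of -0.46 and -0.26. The list of cell cycle inhibitors and arrest genes also holds D-type cyclins, which are not inhibitors. Of its 19 counted members 2 were higher (Rbl1 and the cyclin Ccnd1) and 4 lower, with medians of -0.17 in both libraries. None of 14 replication genes passed in both libraries, with medians of 0.28 and 0.10, and of 13 mitotic genes only Ckap5 was higher, with medians of 0.56 and 0.19. None of 31 oxidative phosphorylation genes passed, with medians of 0.24 and 0.12. Single members passed of 11 Notch genes (Maml3, higher), 22 lipid genes (Fabp5, higher) and 22 glycolysis genes (Psat1, higher), and 2 of 10 cyclic GMP genes (Pde3a, Pde10a, lower).

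Markers of neighbouring mesenchymal types moved both ways. Of 12 alveolar myofibroblast markers Pdgfra, Stc1 and Htra1 were higher and Aspn, Fgf18 and Des lower, with medians of -0.32 in the tdT-high and -0.27 in the tdT-negative library. Of 10 counted smooth muscle markers Cnn1, Des, Lmod1 and Myocd were lower. Of 9 counted alveolar fibroblast markers Fgfr4 and Fgf10 were higher and Limch1 and Mfap4 lower, and of 10 counted pericyte markers Pdgfrb was higher and Postn and Rgs5 lower. Several of these genes are also members of the pathway lists.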
